A study of Mus musculus with 30 samples.

Results

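Cardiac fibroblasts (CFs) of 3-month-old mice were set against CFs of neonatal mice, after both had been kept in culture for 3 days. The comparison takes in 4 of the 30 samples of the series, namely 2 libraries of 3-month CFs and 2 libraries of neonatal CFs (postnatal day 1 to 3), chosen by the age and treatment in their labels. All were primary cells from the hearts of WT (wild-type) mice, not otherwise treated. A second pair of groups served for comparison, 2 libraries of 3-month and 2 libraries of neonatal CFs that had received LacZ, the control of a reprogramming experiment, and were taken at day 3. Genes were counted in bulk RNA libraries, for which the labels name both polyA RNA and a depletion of ribosomal RNA. The labels give neither the number of animals behind a library nor whether replicates came from separate cultures, so the p-values rest on a spread between libraries that may be technical.

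Cardiac fibroblasts are the mesenchymal cells that make and turn over the connective tissue of the heart. Around birth they divide, follow growth factors and help to build a soft, fibronectin-rich matrix between dividing heart muscle cells. In the weeks after birth the tissue is remodelled, the collagen network becomes dense and crosslinked, small proteoglycans bind to its fibrils, and fetal growth genes are silenced. Cells taken from the heart and plated on plastic also respond to culture, and a comparison of cultured cells shows the donors' age after that response.

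The libraries held 17283764 to 22311330 counts in the table of CFs and 14489836 to 18796708 counts in the table with the LacZ cells, and the replicates of 3-month LacZ cells differed more (chi-square per degree of freedom 18.88) than those of the other 3 groups (2.29 to 2.37). Markers of other cell types differed between the ages. Levels are in CPM, the count of a gene relative to the TMM-scaled total of its library. The summed level of 20 cardiomyocyte markers was 23.4 and 28.4 CPM in 3-month CFs, against 1305 and 1210 CPM in neonatal CFs, that of 14 endothelial markers 729 and 797 CPM in 3-month CFs, against 1898 and 1908 CPM in neonatal CFs, that of 16 macrophage markers 168 and 194 CPM in 3-month CFs, against 387 and 382 CPM in neonatal CFs, that of 15 pericyte and smooth muscle markers 2431 and 2599 CPM in 3-month CFs, against 6467 and 6260 CPM in neonatal CFs, and that of 12 epicardial and mesothelial markers 37.95 and 37.6 CPM in 3-month CFs, against 302 and 308 CPM in neonatal CFs. Of the endothelial sum, Eng, which was not called (-0.09 ± 0.041, but called at -0.10 to -0.17 by DESeq2, with each other scaling, with a filter of 1 CPM, in a fit of the 4 libraries alone and without neonatal library 1), made 488 and 492 CPM in 3-month CFs and 511 and 534 CPM in neonatal CFs, while Tek and Cldn5 of that list rose (0.93 ± 0.056 and 2.47 ± 0.27). Of the pericyte and smooth muscle sum, Acta2, which activated fibroblasts also express, made 1174 and 1283 CPM in 3-month CFs and 4224 and 4027 CPM in neonatal CFs, while Pdgfrb rose (0.66 ± 0.041). Of these lists, Myl7 in the cardiomyocyte list and Muc16 in the epicardial list had no count in 3-month CFs, and Higd1b in the pericyte list had none at either age. Erythroid, lymphocyte and neutrophil markers summed to under 3 CPM in every library. The sex of the cells also differed, with Xist, transcribed from the inactive X of female cells, at 0.4497 and 0.479 CPM in 3-month CFs and 1277 and 1288 CPM in neonatal CFs, and the Y-linked Ddx3y at 125 and 125 CPM in 3-month CFs and 24.2 and 24.9 CPM in neonatal CFs. Age and sex therefore cannot be told apart in this comparison. In bulk samples, fewer cells of a type and less RNA per cell cannot be told apart either.

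**Figure D1:**
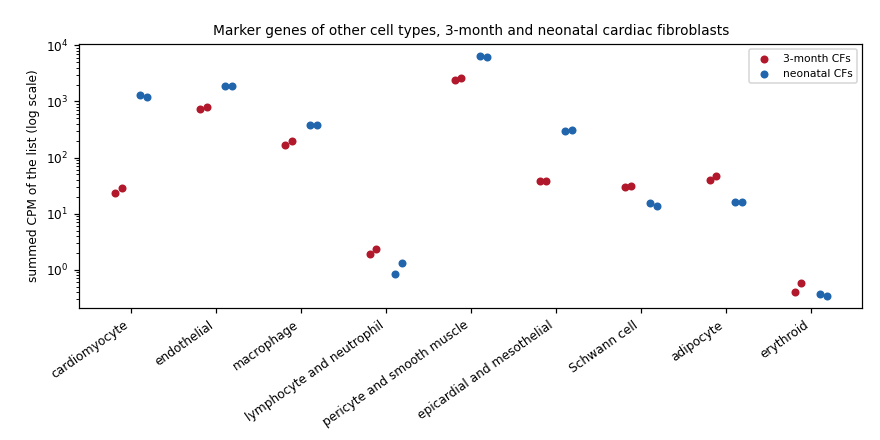
Summed level (CPM, log axis) of the marker lists of other cell types, 1 point per library, with 3-month CFs left of neonatal CFs. Cardiomyocyte markers sum to 23.4 and 28.4 CPM in 3-month CFs and to 1305 and 1210 CPM in neonatal CFs, the widest gap on the plot. The Schwann cell and adipocyte sums are higher in 3-month CFs, but rest mainly on Cdh19 (23.43 and 22.62 CPM there) and Fabp4 (34.85 and 39.92 CPM there). Of 7 Schwann cell markers tested, 3 were called higher and 3 lower. Only 2 of the 10 adipocyte markers passed the filter.

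Of 16466 genes tested, 4618 were higher in 3-month CFs (28.0%) and 4021 were lower (24.4%) at an adjusted p under 0.05 (edgeR's quasi-likelihood test on all 8 CF libraries, Benjamini-Hochberg over all genes tested). Such a gene is said below to have risen or fallen. With upper-quartile factors in place of the TMM scaling, 3765 were higher and 4993 lower, so the balance of small changes depends on the scaling. A change of at least 2-fold was found for 1523 genes that rose (9.25%) and 1575 that fell (9.57%). The median log2 fold change over all tested genes was 0.01. Levels are given below as CPM in library 1 and library 2 of each age, changes as log2 fold change ± standard error, and the counts of a list in CFs are to be read against the percentages above. Counts of a list in LacZ cells are to be read against the shares of all genes tested there, 15.1% higher and 15.8% lower in 3-month LacZ cells. Where levels of a gene are given for CFs of both ages, the libraries of the 2 ages did not overlap.

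Beyond the inflammatory genes Ccl11, Cxcl5, Zbp1, C4b, C7, Saa3 and C3 and the metalloproteinase gene Mmp3, the 10 largest rises among genes of at least 3 on the mean log2 CPM scale held Hp and Steap4, described below with iron handling. Ccl11, an eosinophil chemokine, had no count in neonatal CFs and was at least 87.0-fold higher in 3-month CFs, against a floor of 3 counts over the group. The 10 largest falls among genes of that level were Xist, the mesothelial genes Lrrn4 and Upk1b, the cardiomyocyte genes Nppa, Tnnt2 and Actc1, the imprinted Dlk1, and Kank4, Pkhd1l1 and Ptprz1. Kank4, of a family of proteins at adhesion sites, was at 0.3597 and 0.335 CPM in 3-month CFs, against 63.1 and 62.8 CPM in neonatal CFs (log2 fold change -7.47 ± 0.17). The receptor phosphatase gene Ptprz1 was at 1.71 and 1.77 CPM in 3-month CFs, against 170.3 and 151 CPM in neonatal CFs (log2 fold change -6.52 ± 0.11). Both genes were lower in each 3-month library than in each neonatal library by more than 50 times.

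**Figure D2:**
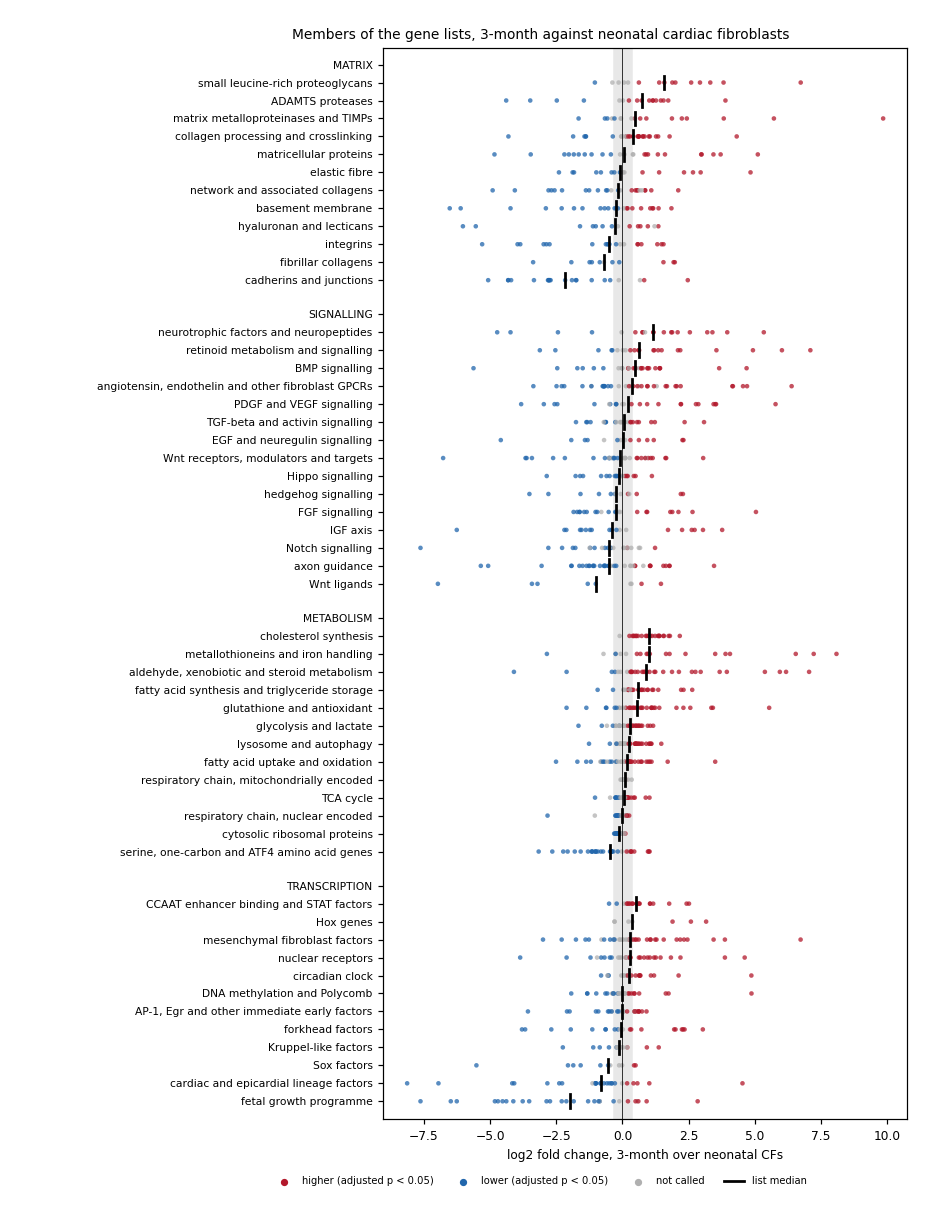
Log2 fold change of 3-month over neonatal CFs for every tested member of the matrix, signalling, metabolic and transcription lists (1 dot per gene, coloured by its call), with the list median as a black bar and the middle 50% of all genes tested as a grey band. Small leucine-rich proteoglycans and cholesterol synthesis lie to the right of the band with medians of 1.58 and 1.00, and cadherins and the fetal growth programme to the left with medians of -2.16 and -1.98.

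The collagens changed in kind. Of 11 fibrillar collagen genes, 3 rose and 7 fell. Col3a1, the chain of type III collagen, was at 13350 and 13580 CPM in 3-month CFs, against 4571 and 4636 CPM in neonatal CFs (log2 fold change 1.55 ± 0.038), adjusted p 3.82e-26. Col1a1, the major chain of type I collagen, was at 5119 and 5463 CPM in 3-month CFs, against 9699 and 9469 CPM in neonatal CFs (log2 fold change -0.86 ± 0.040), and its partner Col1a2 fell by 0.12 on the log2 scale. In RPKM, which divides by the deposited gene length, Col3a1 was at 1372 in 3-month CFs and 469 in neonatal CFs and Col1a1 at 806 in 3-month CFs and 1460 in neonatal CFs, so the order of these 2 genes was opposite at the 2 ages. Type V collagen, which nucleates fibrils, also divided, with Col5a3 at 50.8 and 56.6 CPM in 3-month CFs, against 13.7 and 14.6 CPM in neonatal CFs (log2 fold change 1.93 ± 0.090). Col5a1 was at 1169 and 1247 CPM in 3-month CFs, against 2890 and 2822 CPM in neonatal CFs (log2 fold change -1.24 ± 0.038). Col11a1, a fetal and cartilage fibril collagen, was at 49.5 and 48.4 CPM in 3-month CFs, against 493 and 523 CPM in neonatal CFs (log2 fold change -3.37 ± 0.057), the largest fall of the list, and Col27a1 fell as well (-1.93 ± 0.12). In LacZ cells 3 of 11 fibrillar collagen genes rose and 3 fell, with a median of 0.11, and Col11a1 was not called (-0.04 ± 0.089).

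Collagens of networks and basement membranes fell more often than they rose. Of 25 tested, 8 rose and 12 fell. The 2 chains of the common type IV network, Col4a1 and Col4a2, fell (-1.38 ± 0.035 and -1.26 ± 0.035), with Col4a1 at 4019 and 4147 CPM in 3-month CFs and 10770 and 10500 CPM in neonatal CFs. Col15a1 was at 71.99 and 78.8 CPM in 3-month CFs, against 471 and 497 CPM in neonatal CFs (log2 fold change -2.68 ± 0.071), and Col18a1, the source of endostatin, changed by -2.28 ± 0.074. Type VI collagen divided by chain, with rises of Col6a1 (0.58 ± 0.040) and Col6a2 (0.49 ± 0.043) and a fall of Col6a3 (-0.62 ± 0.042). Among other basement membrane genes (9 of 23 rose, 13 fell), the laminin chain Lama5 was at 33.7 and 38.5 CPM in 3-month CFs, against 171 and 184 CPM in neonatal CFs (log2 fold change -2.296 ± 0.068). Hmcn1, hemicentin, was at 3.96 and 5.13 CPM in 3-month CFs, against 85.04 and 84.9 CPM in neonatal CFs (log2 fold change -4.23 ± 0.11). Nid2, nidogen-2, was at 1114 and 1215 CPM in 3-month CFs, against 462 and 442 CPM in neonatal CFs (log2 fold change 1.36 ± 0.047), and the laminin chain Lamb2 rose by 1.16 ± 0.048. Endothelial, mural and mesothelial cells also make these proteins, and their markers were lower in 3-month CFs as given above; the part of those cells in these falls was not tested.

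Small leucine-rich proteoglycans, which bind collagen fibrils and set their spacing, rose together. Of 15 members tested of 17, 10 rose and 1 fell, with a median log2 fold change of 1.58. Decorin, Dcn, was at 2164 and 2203 CPM in 3-month CFs, against 155 and 155 CPM in neonatal CFs (log2 fold change 3.82 ± 0.046), adjusted p 1.97e-34. Lumican, Lum, was at 366 and 363 CPM in 3-month CFs, against 34.8 and 38.7 CPM in neonatal CFs (log2 fold change 3.32 ± 0.051). Osteoglycin, Ogn, was at 917 and 950.2 CPM in 3-month CFs, against 163 and 146 CPM in neonatal CFs (log2 fold change 2.595 ± 0.052). Prelp, which links collagen to basement membranes, was at 1311 and 1423 CPM in 3-month CFs, against 344 and 340.2 CPM in neonatal CFs (log2 fold change 1.999 ± 0.051). Each of these 4 genes was at least 3 times as high in either 3-month library as in either neonatal one. Bgn, biglycan, was not called, and the 4 members not called had log2 fold changes between -0.38 and 0.21. In LacZ cells 5 of 14 members rose and 1 fell, with a median of 0.23.

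Elastic fibre genes went both ways, 6 of 17 rising and 8 falling. In LacZ cells 10 of 17 rose and 3 fell, with a median of 0.525. Elastin itself, Eln, was at 283 and 310.1 CPM in 3-month CFs, against 1501 and 1626 CPM in neonatal CFs (log2 fold change -2.399 ± 0.079). Fbn2, fibrillin-2 of fetal microfibrils, changed by -1.88 ± 0.076, while Fbn1, the main adult fibrillin gene, was not called (-0.08 ± 0.037; it was called, at -0.09 to -0.16, by DESeq2, with RLE, upper-quartile or library-total scaling, with a filter of 1 CPM, in a fit of the 4 libraries alone and without neonatal library 2). Emilin2, a glycoprotein of elastic fibres, was at 114 and 115 CPM in 3-month CFs, against 4.08 and 3.87 CPM in neonatal CFs (log2 fold change 4.84 ± 0.080). The microfibril protein gene Mfap5 was at 137 and 141 CPM in 3-month CFs, against 18.9 and 16.9 CPM in neonatal CFs (log2 fold change 2.95 ± 0.062). Efemp1, fibulin-3, was at 197 and 202 CPM in 3-month CFs, against 32.6 and 30.1 CPM in neonatal CFs (log2 fold change 2.66 ± 0.057). All libraries of one age lay apart from all libraries of the other by more than 4 times for Eln, Emilin2, Mfap5 and Efemp1.

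Genes of the matricellular list were split evenly (10 of 25 rose, 10 fell). Many, though not all, of their proteins signal to cells without bearing load. Fn1, fibronectin, the provisional matrix of growing and healing tissue, was at 5656 and 5766 CPM in 3-month CFs, against 22880 and 23600 CPM in neonatal CFs (log2 fold change -2.02 ± 0.036). Periostin, Postn, was at 238 and 225 CPM in 3-month CFs, against 2582 and 2530 CPM in neonatal CFs (log2 fold change -3.46 ± 0.051). Ccn4, a target of Wnt signalling, was at 16.3 and 17.2 CPM in 3-month CFs, against 478 and 477 CPM in neonatal CFs (log2 fold change -4.83 ± 0.056). Tenascin-X, Tnxb, which stabilises mature collagen, was at 357 and 359.7 CPM in 3-month CFs, against 32.9 and 33.3 CPM in neonatal CFs (log2 fold change 3.44 ± 0.065). F-spondin, Spon1, was at 120.3 and 126 CPM in 3-month CFs, against 9.15 and 9.72 CPM in neonatal CFs (log2 fold change 3.71 ± 0.075).

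Genes of matrix processing shifted as well. Of 27 genes of collagen processing and crosslinking, 17 rose and 6 fell. Pcolce2, an enhancer of procollagen cleavage, was at 167 and 167 CPM in 3-month CFs, against 8.396 and 8.36 CPM in neonatal CFs (log2 fold change 4.32 ± 0.064). The prolyl hydroxylase gene P4ha2 rose (1.35 ± 0.071) and P4ha3 fell (-1.43 ± 0.090), as did the crosslinking enzyme gene Loxl2 (-1.38 ± 0.054). Of 17 genes of the ADAMTS list, which holds secreted proteases that cut large proteoglycans and the ADAMTS-like proteins that lack the protease domain, 11 rose and 4 fell. Adamts5 was at 1619 and 1649 CPM in 3-month CFs, against 482 and 503 CPM in neonatal CFs (log2 fold change 1.73 ± 0.044). Adamts1 was at 1015 and 996 CPM in 3-month CFs, against 320.1 and 367 CPM in neonatal CFs (log2 fold change 1.55 ± 0.047). Versican, Vcan, a proteoglycan both enzymes can cleave, was at 712 and 677 CPM in 3-month CFs, against 263 and 280.1 CPM in neonatal CFs (log2 fold change 1.36 ± 0.043). Against these, Adamtsl2, which binds microfibrils and has no protease domain, was at 20.6 and 22.3 CPM in 3-month CFs, against 459 and 441 CPM in neonatal CFs (log2 fold change -4.39 ± 0.058). Adamts12 was at 92.9 and 84.96 CPM in 3-month CFs, against 490.3 and 503 CPM in neonatal CFs (log2 fold change -2.48 ± 0.052). In LacZ cells 5 of 17 genes of the ADAMTS list rose and 5 fell, with a median of -0.12.

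Integrins, the receptors through which cells hold the matrix, mostly fell (12 of 20, with 6 rising). Itga4, a receptor chain for fibronectin and VCAM-1, was at 6.88 and 7.09 CPM in 3-month CFs, against 261 and 289 CPM in neonatal CFs (log2 fold change -5.299 ± 0.074). Itga8 was at 18.4 and 20.9 CPM in 3-month CFs, against 274 and 297 CPM in neonatal CFs (log2 fold change -3.86 ± 0.073), and the laminin-binding Itga3 and Itga7 fell (-3.96 ± 0.10 and -2.98 ± 0.10). The collagen-binding Itga2 was at 41.1 and 38.2 CPM in 3-month CFs, against 12.7 and 14.5 CPM in neonatal CFs (log2 fold change 1.55 ± 0.090). Cadherins and junction genes had the lowest median of the matrix lists (-2.16, 17 of 21 falling and 2 rising). Cdh11, a cadherin of mesenchymal cells, was at 51.4 and 51.2 CPM in 3-month CFs, against 222 and 238 CPM in neonatal CFs (log2 fold change -2.16 ± 0.053), and the N-cadherin gene Cdh2 changed by -1.16 ± 0.043. Cdh5, which marks endothelium, was at 40.9 and 60.4 CPM in 3-month CFs, against 346 and 353 CPM in neonatal CFs (log2 fold change -2.79 ± 0.22), beside the endothelial sum of 729 and 797 CPM in 3-month CFs, against 1898 and 1908 CPM in neonatal CFs; the part of other cell types in these falls was not tested.

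**Figure D3:**
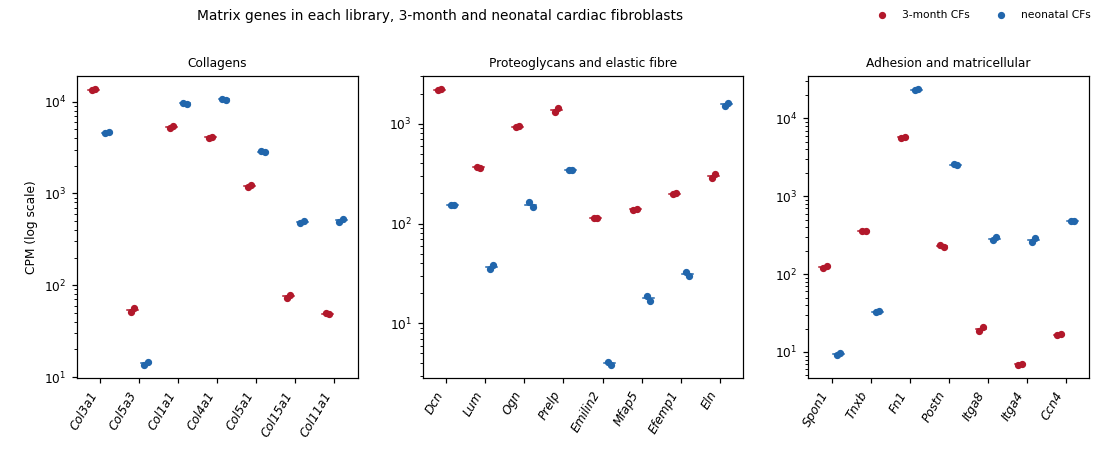
Level (CPM, log axis) of 22 matrix and adhesion genes in each library, 2 points per age with their mean as a line, 3-month CFs left of neonatal CFs. Dcn sits at 2164 and 2203 CPM in 3-month CFs and 155 and 155 CPM in neonatal CFs, and Itga4 at 6.88 and 7.09 CPM in 3-month CFs and 261 and 289 CPM in neonatal CFs; the replicates of an age lie close together.

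Growth factor systems changed on the side of ligands and receptors alike. Pdgfra, the PDGF receptor that defines fibroblasts, was at 1397 and 1300 CPM in 3-month CFs, against 174 and 196 CPM in neonatal CFs (log2 fold change 2.87 ± 0.051). Its ligand Pdgfa was at 8.23 and 9.58 CPM in 3-month CFs, against 69.8 and 69.7 CPM in neonatal CFs (log2 fold change -2.97 ± 0.092). The lymphatic growth factor genes rose, Vegfd to 319 and 350.3 CPM in 3-month CFs, against 74.7 and 69.4 CPM in neonatal CFs (log2 fold change 2.21 ± 0.069) and Vegfc to 84.9 and 91.6 CPM in 3-month CFs, against 17.3 and 21.3 CPM in neonatal CFs (log2 fold change 2.203 ± 0.074). Vegfd lies on the X chromosome, and the sex of the cells differed between the ages as given above. Flt1, a VEGF receptor of endothelium, changed by -3.83 ± 0.17, beside the lower endothelial sum. Of 24 genes of the PDGF and VEGF list, 12 rose and 8 fell.

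In the FGF list 8 of 22 genes rose and 11 fell. Fgf2, the classical fibroblast mitogen, was at 226 and 216 CPM in 3-month CFs, against 51.3 and 50.6 CPM in neonatal CFs (log2 fold change 2.11 ± 0.053). Fgf7, which acts on epithelia, was at 44.5 and 41.6 CPM in 3-month CFs, against 6.29 and 7.56 CPM in neonatal CFs (log2 fold change 2.65 ± 0.098). The receptor Fgfr2 was at 31.8 and 28.9 CPM in 3-month CFs, against 91.3 and 95.2 CPM in neonatal CFs (log2 fold change -1.62 ± 0.070). A pair of feedback and target genes of FGF and ERK signalling were lower, Etv4 (-1.45 ± 0.14) and Dusp6 (-0.95 ± 0.065). Of the EGF family, the receptor Egfr was at 237 and 218 CPM in 3-month CFs, against 45.3 and 46.9 CPM in neonatal CFs (log2 fold change 2.304 ± 0.051). Its feedback inhibitor Errfi1 was at 257 and 262 CPM in 3-month CFs, against 52.1 and 55.9 CPM in neonatal CFs (log2 fold change 2.27 ± 0.051). The ligand gene Nrg1, neuregulin-1, was at 4.99 and 5.17 CPM in 3-month CFs, against 119 and 127 CPM in neonatal CFs (log2 fold change -4.59 ± 0.091) and Hbegf changed by -1.93 ± 0.086. Over the whole EGF list 6 of 14 genes rose and 5 fell.

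The IGF axis, the main growth pathway of the fetus, fell in 11 and rose in 6 of 19 genes. Igf2, the fetal growth factor, was at 0.225 and 0.144 CPM in 3-month CFs, against 14.8 and 14.6 CPM in neonatal CFs (log2 fold change -6.26 ± 0.28). Igf1, the postnatal growth factor, was at 81.1 and 86.4 CPM in 3-month CFs and 92.4 and 87.5 CPM in neonatal CFs and was not called (-0.105 ± 0.061, adjusted p 0.155; with upper-quartile factors it was, at -0.19). The receptor Igf1r was at 139.5 and 139 CPM in 3-month CFs, against 363 and 362 CPM in neonatal CFs (log2 fold change -1.38 ± 0.042). Grb10, an imprinted inhibitor of the insulin and IGF receptors, was at 187 and 187 CPM in 3-month CFs, against 825 and 799 CPM in neonatal CFs (log2 fold change -2.12 ± 0.047). Of the binding proteins, which hold IGF outside the cell, Igfbp4 was at 779 and 798 CPM in 3-month CFs, against 91.04 and 101 CPM in neonatal CFs (log2 fold change 3.04 ± 0.15). Igfbp3, Igfbp5 and Igfbp6 rose as well (1.72 ± 0.12, 2.62 ± 0.12 and 2.25 ± 0.13), while Igfbp2 and Igfbp7 fell (-2.19 ± 0.18 and -0.49 ± 0.046). In LacZ cells Igfbp3 and Igfbp4 changed in the opposite direction (-0.96 ± 0.14 and -0.92 ± 0.16).

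Of the TGF-beta and activin list, which drives fibroblast activation, 9 of 27 genes rose and 8 fell, near the background shares. The ligands were lower, Tgfb3 at 108 and 114 CPM in 3-month CFs, against 389.5 and 359 CPM in neonatal CFs (log2 fold change -1.75 ± 0.049). Tgfb2 was at 90.2 and 100.2 CPM in 3-month CFs, against 251 and 239 CPM in neonatal CFs (log2 fold change -1.36 ± 0.081), with a small fall of Tgfb1 (-0.27 ± 0.064), which was not called without 3-month library 1 (-0.16). Betaglycan, Tgfbr3, which presents the ligand to its receptors, was at 267 and 251 CPM in 3-month CFs, against 30.7 and 30.5 CPM in neonatal CFs (log2 fold change 3.08 ± 0.054). GARP, Lrrc32, which holds latent TGF-beta at the cell surface, was at 894 and 888 CPM in 3-month CFs, against 179.9 and 170.1 CPM in neonatal CFs (log2 fold change 2.35 ± 0.043). Of the genes of latent TGF-beta binding proteins in the elastic fibre list, Ltbp4 (-1.83 ± 0.050), Ltbp2 (-0.81 ± 0.053) and Ltbp3 (-0.41 ± 0.044) fell, and Ltbp1 was not called (0.07 ± 0.060). Of the signalling receptors Tgfbr2 rose by 0.62 ± 0.047 and Tgfbr1 was not called (0.1 ± 0.052). In the BMP list 17 of 29 genes rose and 6 fell. The BMP target genes Id3 and Id1 were higher, with Id3 at 415 and 424 CPM in 3-month CFs, against 154 and 163 CPM in neonatal CFs (log2 fold change 1.403 ± 0.044) and a rise of Id1 by 0.95 ± 0.057, and so was the BMP-binding Bmper (1.41 ± 0.054), while the ligand gene Bmp4 was at 61.4 and 70.1 CPM in 3-month CFs, against 142 and 136 CPM in neonatal CFs (log2 fold change -1.08 ± 0.058).

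In the Notch list 11 of 22 genes fell and 2 rose, with the target Heyl at 7.33 and 8.53 CPM in 3-month CFs, against 37.6 and 39.5 CPM in neonatal CFs (log2 fold change -2.28 ± 0.11). The receptor Notch1 was at 54.4 and 60.5 CPM in 3-month CFs, against 114 and 124 CPM in neonatal CFs (log2 fold change -1.05 ± 0.058). Endothelial and mural cells carry much of Notch signalling, and both marker sums were lower as given above; their part was not tested. Of Wnt ligands 5 of 9 fell and 2 rose, while among receptors, modulators and targets 10 of 33 rose and 14 fell. The secreted Wnt inhibitors Frzb and Sfrp1 rose, with Frzb at 501 and 485 CPM in 3-month CFs, against 54.1 and 65.5 CPM in neonatal CFs (log2 fold change 3.05 ± 0.058). Sfrp1 was at 652 and 656 CPM in 3-month CFs, against 199.5 and 226 CPM in neonatal CFs (log2 fold change 1.62 ± 0.049). The receptor Fzd6 was at 6.75 and 7.57 CPM in 3-month CFs, against 75.9 and 77.1 CPM in neonatal CFs (log2 fold change -3.42 ± 0.10), and Fzd1 rose by 1.14 ± 0.059. Of Hippo genes 12 of 22 fell and 6 rose, and the YAP target Ankrd1 was at 399 and 372 CPM in 3-month CFs, against 1308 and 1321 CPM in neonatal CFs (log2 fold change -1.77 ± 0.050). Axon guidance genes, which also steer other migrating cells, fell in 23 and rose in 10 of 39, among them the semaphorin Sema3e at 0.585 and 1.102 CPM in 3-month CFs, against 33.9 and 34.8 CPM in neonatal CFs (log2 fold change -5.35 ± 0.20) and the receptor Robo2 (-3.05 ± 0.14), but netrin-1, Ntn1, was at 122 and 122 CPM in 3-month CFs, against 10.9 and 11.3 CPM in neonatal CFs (log2 fold change 3.46 ± 0.065).

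Neurotrophic factors and retinoid genes rose more often than all genes did, while receptors for vasoactive and lipid mediators both rose and fell more often. Of 36 G protein-coupled receptor system genes 17 rose and 13 fell. Agtr1a, the angiotensin II receptor, was at 9.08 and 11.2 CPM in 3-month CFs, against 0.704 and 0.398 CPM in neonatal CFs (log2 fold change 4.15 ± 0.29). The prostacyclin receptor Ptgir was at 39.03 and 42.1 CPM in 3-month CFs, against 1.78 and 1.65 CPM in neonatal CFs (log2 fold change 4.55 ± 0.12). The lysophosphatidic acid receptor Lpar1 was at 158 and 162 CPM in 3-month CFs, against 34.1 and 35.5 CPM in neonatal CFs (log2 fold change 2.198 ± 0.053). S1pr1, which is abundant in endothelium, was at 15.8 and 19.6 CPM in 3-month CFs, against 97 and 102 CPM in neonatal CFs (log2 fold change -2.49 ± 0.081). Of 20 neurotrophic and peptide genes 14 rose and 4 fell (median 1.17). Adrenomedullin, Adm, a vasodilator peptide, was at 1195 and 1247 CPM in 3-month CFs, against 131 and 134 CPM in neonatal CFs (log2 fold change 3.203 ± 0.044). Gfra1, a receptor for GDNF, was at 27.3 and 20.9 CPM in 3-month CFs, against 0.563 and 0.625 CPM in neonatal CFs (log2 fold change 5.34 ± 0.21). Pleiotrophin, Ptn, was at 3.51 and 3.55 CPM in 3-month CFs, against 65.8 and 66.6 CPM in neonatal CFs (log2 fold change -4.23 ± 0.11). Of 22 retinoid genes 14 rose and 5 fell, among them Aldh1a2, the enzyme that makes retinoic acid in the embryonic heart, at 709 and 712 CPM in 3-month CFs, against 59.9 and 61.5 CPM in neonatal CFs (log2 fold change 3.55 ± 0.049). Aldh1a1, of the same enzyme family, was at 533 and 535 CPM in 3-month CFs, against 124 and 126 CPM in neonatal CFs (log2 fold change 2.095 ± 0.043).

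Cholesterol synthesis rose almost as a whole. Of 25 genes of the pathway and its regulation, 24 rose and none fell, against 28.0% and 24.4% of all genes, with a median log2 fold change of 1.00. Most of the changes were moderate. Hmgcs1, the enzyme that makes HMG-CoA, was at 167 and 179 CPM in 3-month CFs, against 80.02 and 79.2 CPM in neonatal CFs (log2 fold change 1.12 ± 0.057). Further along the pathway Nsdhl and Sc5d rose by 1.74 ± 0.096 and 1.57 ± 0.057, and Idi1 was at 44.8 and 46.3 CPM in 3-month CFs, against 12.7 and 13.6 CPM in neonatal CFs (log2 fold change 1.79 ± 0.083). Fdps was at 45.3 and 46.4 CPM in 3-month CFs, against 16.1 and 15.2 CPM in neonatal CFs (log2 fold change 1.54 ± 0.078). Squalene epoxidase, Sqle, was at 70.01 and 68.7 CPM in 3-month CFs, against 35.98 and 34.1 CPM in neonatal CFs (log2 fold change 0.98 ± 0.062). Insig1, the sterol-sensing brake, was at 147 and 145 CPM in 3-month CFs, against 58.1 and 53.1 CPM in neonatal CFs (log2 fold change 1.39 ± 0.056). Srebf2, the transcription factor of these genes, rose less (0.52 ± 0.046). Tm7sf2 was not called (-0.11 ± 0.22). The same contrast in LacZ cells gave a median of 0.05, with 3 of 25 genes rising and 1 falling, and Hmgcs1 at 67.9 and 73.5 CPM in 3-month LacZ cells and 79.6 and 71.5 CPM in neonatal LacZ cells (-0.10 ± 0.090).

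Genes of fatty acid synthesis and storage rose with them in 21 of 27 cases, with 2 falling. The desaturase Scd1 was at 259 and 246 CPM in 3-month CFs, against 47.2 and 55.3 CPM in neonatal CFs (log2 fold change 2.31 ± 0.055). Gpam, which starts triglyceride synthesis, was at 151 and 144 CPM in 3-month CFs, against 32.9 and 30.4 CPM in neonatal CFs (log2 fold change 2.21 ± 0.056). Acaca, the carboxylase that commits acetyl-CoA to fatty acids, was at 97.5 and 90.6 CPM in 3-month CFs, against 56.6 and 56.5 CPM in neonatal CFs (log2 fold change 0.73 ± 0.054). The lipase Pnpla2, which opens stored triglyceride, was at 15.2 and 15.5 CPM in 3-month CFs, against 30.9 and 27.7 CPM in neonatal CFs (log2 fold change -0.94 ± 0.094). Scd1 and Scd2 are close paralogs whose reads may be split or lost in counting, as may those of the Gst, Ly6, Akr1c and metallothionein families named below.

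Serine, one-carbon and amino acid genes went the other way. Of 34 genes, 24 fell and 8 rose, with a median of -0.46. These are largely targets of ATF4, the transcription factor of the amino acid response. Phgdh, the first enzyme of serine synthesis, was at 65.5 and 67.6 CPM in 3-month CFs, against 162 and 167 CPM in neonatal CFs (log2 fold change -1.303 ± 0.056). Asparagine synthetase, Asns, was at 66.7 and 74.5 CPM in 3-month CFs, against 158 and 152 CPM in neonatal CFs (log2 fold change -1.14 ± 0.054). The amino acid transporters Slc7a5 and Slc7a1 were at 50.1 and 58.5 CPM in 3-month CFs and 190.3 and 187 CPM in neonatal CFs (-1.801 ± 0.059) and at 111 and 118 CPM in 3-month CFs and 248 and 259 CPM in neonatal CFs (-1.15 ± 0.048). Trib3, a pseudokinase induced by stress, was at 4.36 and 5.22 CPM in 3-month CFs, against 30.4 and 29.7 CPM in neonatal CFs (log2 fold change -2.65 ± 0.13). Chac1, which degrades glutathione, was at 4.23 and 5.703 CPM in 3-month CFs, against 20.97 and 20.6 CPM in neonatal CFs (log2 fold change -2.07 ± 0.14). Atf4 itself fell by less (-0.404 ± 0.042). The 8 genes that rose included the folate enzymes of nucleotide synthesis Tyms and Mthfd1 and the glutamine transporter Slc1a5, but 5 genes rose, and Tyms was not called, without 3-month library 1 or without neonatal library 1. In LacZ cells 15 of 34 fell and 6 rose, with Slc7a11, the cystine transporter, at 0.51 ± 0.17 there and at -1.02 ± 0.16 in CFs.

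**Figure D4:**
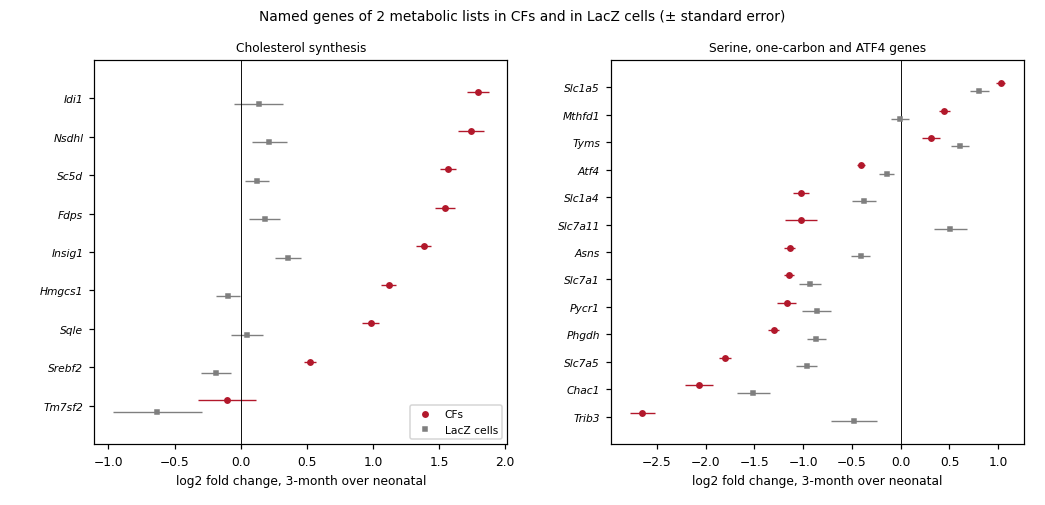
Log2 fold change (± standard error) of 3-month over neonatal cells for the genes named in the text from 2 metabolic lists, red circles for CFs and grey squares for LacZ cells, which were scaled and tested separately. The whole cholesterol list has a median of 1.00 in CFs and of 0.05 in LacZ cells.

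The promoters of both lists were read for the short elements through which their known regulators act, because most members of 1 list rose and most of the other fell. RefSeq promoters (GRCm38.p6, 250 bases before to 50 after each start) were found for 25 of the 34 serine and ATF4 genes and for 17 of the 25 cholesterol genes. The CEBP-ATF response element, searched as TGATGNAA on both strands, stood in 6 of the 25 promoters (24.0%), against 4.51% of the 27025 genes with a promoter. All 6 of these genes, Asns, Chac1, Pycr1, Slc1a4, Slc7a11 and Trib3, fell, as did 24 of the 34 genes of the list. The sterol regulatory element, searched as TCACNCCAC on both strands, stood in 1 of 17 cholesterol promoters (5.88%), against 1.44% of all. The elements searched are those of the lists' known regulators, so a share above that of all genes can follow from the choice of list alone. Whether the elements had a part in the changes was not tested. A match is a string of letters and not a shown site, and no match says only that the letters are not in this window. The windows below show the match in capitals within 10 bases on each side, on the strand of the gene; some windows hold the element as read from the other strand.
Asns: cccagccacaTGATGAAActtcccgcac
Chac1: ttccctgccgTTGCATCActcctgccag
Pycr1: gccctgtgtaTGATGCAAtgcacaaggc
Slc1a4: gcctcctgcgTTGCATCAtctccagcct
Trib3: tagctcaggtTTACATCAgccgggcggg
Hmgcs1: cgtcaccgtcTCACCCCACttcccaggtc
The Hmgcs1 window is chr13:119690204-119690232 on the + strand, the Chac1 window chr2:119351039-119351066 on the + strand, and the Trib3 window chr2:152344029-152344056 on the - strand. The Asns window is chr6:7693215-7693242, the Slc1a4 window chr11:20332700-20332727 and the Pycr1 window chr11:120643834-120643861, all on the - strand. All coordinates are of GRCm38.p6. Asns carries its element 23 bases before the start of the gene.

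Genes that handle peroxides, electrophiles and foreign compounds rose widely. Of 34 glutathione and antioxidant genes 24 rose and 6 fell (median 0.53; in LacZ cells 25 of 35 rose and 1 fell). The glutathione transferase Gsta3 was at 60.7 and 64.4 CPM in 3-month CFs, against 1.36 and 1.31 CPM in neonatal CFs (log2 fold change 5.54 ± 0.11). Extracellular superoxide dismutase, Sod3, was at 197 and 212 CPM in 3-month CFs, against 19.6 and 20.4 CPM in neonatal CFs (log2 fold change 3.36 ± 0.068). The plasma glutathione peroxidase Gpx3 was at 1071 and 1102 CPM in 3-month CFs, against 219 and 222 CPM in neonatal CFs (log2 fold change 2.302 ± 0.048). Mitochondrial superoxide dismutase, Sod2, was at 159 and 152 CPM in 3-month CFs, against 40.2 and 35.2 CPM in neonatal CFs (log2 fold change 2.04 ± 0.056). Gsto1 was at 40.6 and 37.1 CPM in 3-month CFs, against 98.4 and 102 CPM in neonatal CFs (log2 fold change -1.36 ± 0.082). The antioxidant response element, searched as TGACNNNGC on both strands, stood in 9 of the 29 promoters found for this list (31.0%), against 3781 of all 27025 genes with a promoter, and 8 of these 9 genes rose.
Gsta3: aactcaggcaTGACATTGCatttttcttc
Mgst1: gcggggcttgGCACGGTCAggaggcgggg
The Gsta3 window is chr1:21240454-21240482 on the + strand and the Mgst1 window is chr6:138140461-138140489 on the + strand, both of GRCm38.p6, with the match in capitals.

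In the list of aldehyde, xenobiotic and steroid metabolism 25 of 32 genes rose and 4 fell. Hsd11b1, which regenerates active glucocorticoid inside cells, was at 487 and 484 CPM in 3-month CFs, against 76.9 and 81.01 CPM in neonatal CFs (log2 fold change 2.62 ± 0.049). The oxysterol hydroxylase Cyp7b1 was at 25.1 and 26.8 CPM in 3-month CFs, against 0.469 and 0.796 CPM in neonatal CFs (log2 fold change 5.38 ± 0.18). The monooxygenase Fmo2 was at 33.9 and 33.3 CPM in 3-month CFs, against 0.563 and 0.512 CPM in neonatal CFs (log2 fold change 5.94 ± 0.16). Cyp1b1, which hydroxylates estrogens and retinoids, was at 947 and 875 CPM in 3-month CFs, against 209 and 207 CPM in neonatal CFs (log2 fold change 2.13 ± 0.044). Metallothioneins and iron genes rose in 14 and fell in 2 of 20 cases. Ceruloplasmin, Cp, a copper protein that oxidises iron, was at 641 and 642 CPM in 3-month CFs, against 38.4 and 38.5 CPM in neonatal CFs (log2 fold change 4.06 ± 0.099). Steap3, a reductase of iron, was at 118 and 121 CPM in 3-month CFs, against 7.18 and 9.04 CPM in neonatal CFs (log2 fold change 3.89 ± 0.081). Steap4, a related reductase, was at 55.4 and 53.96 CPM in 3-month CFs, against 0.281 and 0.455 CPM in neonatal CFs (log2 fold change 7.22 ± 0.20). Haptoglobin, Hp, which binds free haemoglobin, was at 37.01 and 36.04 CPM in 3-month CFs, against 0 and 0.284 CPM in neonatal CFs (log2 fold change 8.08 ± 0.26). Ferroportin, Slc40a1, the channel that exports iron and is abundant in macrophages, was at 5.76 and 6.13 CPM in 3-month CFs, against 41.6 and 44.5 CPM in neonatal CFs (log2 fold change -2.85 ± 0.11), beside a macrophage sum of 168 and 194 CPM in 3-month CFs, against 387 and 382 CPM in neonatal CFs. Hp, Steap4, Cp and the metallothionein genes are also known to be induced in inflammation, and the inflammatory genes among the largest rises moved with them; the part of that response was not tested.

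Of 31 glycolytic genes 16 rose and 4 fell, with a median of 0.29. Hexokinase 2, Hk2, was at 117 and 119 CPM in 3-month CFs, against 63.3 and 58.04 CPM in neonatal CFs (log2 fold change 0.95 ± 0.054). The pyruvate kinase gene Pkm was at 1395 and 1355 CPM in 3-month CFs, against 836 and 803 CPM in neonatal CFs (log2 fold change 0.75 ± 0.038). Slc16a3, which exports lactate, was at 44.5 and 51.5 CPM in 3-month CFs, against 24.7 and 21.4 CPM in neonatal CFs (log2 fold change 1.05 ± 0.16). Of 52 nuclear genes of the respiratory chain 3 rose (5.77%, against 28.0% of all genes), with a median of -0.02. In the same list 11 fell (21.15%), near the 24.4% of all genes. With upper-quartile factors 19 fell, and 7 fell without 3-month library 2 or without neonatal library 1. Of 12 mitochondrially encoded genes 1 rose and none fell, against none and 3 with upper-quartile factors. In the TCA cycle list 12 of 30 rose and 7 fell, with the cytosolic isocitrate dehydrogenase Idh1 at 153 and 157 CPM in 3-month CFs, against 77.96 and 74.9 CPM in neonatal CFs (log2 fold change 1.02 ± 0.049). The mitochondrial PEP carboxykinase Pck2 was at 49.7 and 51.04 CPM in 3-month CFs, against 104 and 103 CPM in neonatal CFs (log2 fold change -1.04 ± 0.058). Fatty acid genes went both ways (21 of 41 rose, 10 fell). Lipoprotein lipase, Lpl, was at 942 and 867 CPM in 3-month CFs, against 463 and 455 CPM in neonatal CFs (log2 fold change 0.98 ± 0.041). The fatty acid transporter Cd36, abundant in endothelium, was at 36.5 and 46.4 CPM in 3-month CFs, against 99.02 and 90.2 CPM in neonatal CFs (log2 fold change -1.195 ± 0.085).

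Lysosomal genes rose in 20 and fell in 3 of 37 cases; 9 fell with upper-quartile factors and 7 without neonatal library 2. Cathepsin K, Ctsk, which degrades collagen, was at 110.1 and 108 CPM in 3-month CFs, against 50.99 and 51.1 CPM in neonatal CFs (log2 fold change 1.09 ± 0.060). Ctsz was at 277 and 268 CPM in 3-month CFs, against 133 and 125 CPM in neonatal CFs (log2 fold change 1.08 ± 0.049). Ctss, a cathepsin of macrophages, was at 20.6 and 22.9 CPM in 3-month CFs, against 51.4 and 53.1 CPM in neonatal CFs (log2 fold change -1.26 ± 0.079). Genes of cytosolic ribosomal proteins fell by small amounts in 23 of 43 cases and rose in 1, with a median of -0.12; 12 fell without 3-month library 2 or without neonatal library 1. In LacZ cells 11 of the same genes rose and none fell, with a median of 0.18.

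The cell cycle list held inhibitors of the cycle together with cyclins and proliferation markers, so its counts do not measure cell cycle exit. Of its 21 genes 9 rose (42.86%, against 28.0% of all genes). A further 5 fell (23.81%), near the 24.4% of all genes. Of the D-type cyclin genes, Ccnd1 was at 61.9 and 54.7 CPM in 3-month CFs, against 209 and 211 CPM in neonatal CFs (log2 fold change -1.85 ± 0.079). Ccnd2 was at 337 and 332 CPM in 3-month CFs, against 762 and 743 CPM in neonatal CFs (log2 fold change -1.17 ± 0.043). The third of them, Ccnd3, rose a little (0.17 ± 0.052) but was not called by DESeq2, with upper-quartile factors (0.09) or without either neonatal library. The proliferation markers Mki67 and Top2a were higher by a little, with Mki67 at 284 and 273 CPM in 3-month CFs, against 222 and 248 CPM in neonatal CFs (log2 fold change 0.25 ± 0.057). Top2a was at 288 and 275 CPM in 3-month CFs, against 214 and 239 CPM in neonatal CFs (log2 fold change 0.32 ± 0.071). Without neonatal library 1, Mki67 was not called (0.15), and 5 genes of the list rose. The inhibitor Cdkn2c was at 45.01 and 45.1 CPM in 3-month CFs, against 20.9 and 19.7 CPM in neonatal CFs (log2 fold change 1.15 ± 0.075). Cdkn1a, p21, was at 351 and 347 CPM in 3-month CFs, against 469 and 441 CPM in neonatal CFs (log2 fold change -0.38 ± 0.042).

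Transcription factors of the developing heart were lower. Of 26 cardiac and epicardial lineage factors 19 fell and 5 rose, with a median of -0.83. Mef2a, a factor of muscle genes, was at 128 and 129.8 CPM in 3-month CFs, against 262 and 256 CPM in neonatal CFs (log2 fold change -1.01 ± 0.043). Gata4 was at 101 and 104 CPM in 3-month CFs, against 169.7 and 164 CPM in neonatal CFs (log2 fold change -0.703 ± 0.047). Tbx18, of the epicardium, was at 56.8 and 55.2 CPM in 3-month CFs, against 115 and 108 CPM in neonatal CFs (log2 fold change -0.997 ± 0.057). Tcf21, which marks resident cardiac fibroblasts, was at 443 and 462 CPM in 3-month CFs, against 219 and 229 CPM in neonatal CFs (log2 fold change 1.01 ± 0.049). Bnc2, a zinc finger factor of mesenchyme, was at 24.2 and 23.7 CPM in 3-month CFs, against 0.7505 and 1.36 CPM in neonatal CFs (log2 fold change 4.53 ± 0.17). Cardiomyocyte and epicardial markers summed to less in 3-month CFs as given above, and their part in these falls was not tested. In LacZ cells Tcf21 changed by -0.32 ± 0.11, the opposite direction.

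Factors of mesenchyme and connective tissue rose in 19 and fell in 9 of 37 cases. Eya2 was at 14.8 and 16.1 CPM in 3-month CFs, against 0.985 and 1.14 CPM in neonatal CFs (log2 fold change 3.87 ± 0.17). The homeobox gene Meox2 was at 13.8 and 14.8 CPM in 3-month CFs, against 1.17 and 1.48 CPM in neonatal CFs (log2 fold change 3.44 ± 0.17). Ebf2, a factor of adipose and mesenchymal precursors, was at 48.2 and 53.05 CPM in 3-month CFs, against 10.5 and 9.61 CPM in neonatal CFs (log2 fold change 2.33 ± 0.088). Prrx1, a homeobox gene of fibroblasts, was at 445 and 438 CPM in 3-month CFs, against 176 and 187 CPM in neonatal CFs (log2 fold change 1.29 ± 0.043). Eya4 was at 19.9 and 19.5 CPM in 3-month CFs, against 51.6 and 52.02 CPM in neonatal CFs (log2 fold change -1.396 ± 0.082). Levels of Eya2 and Meox2 were near 1 CPM in both neonatal libraries. Of Sox factors 6 of 11 fell and 2 rose, among them Sox4, a factor of fetal progenitors, at 47.98 and 44.04 CPM in 3-month CFs, against 164 and 169.9 CPM in neonatal CFs (log2 fold change -1.86 ± 0.054). Forkhead factors were evenly split (9 of 20 rose, 9 fell), with Foxp2 at 74.1 and 74.6 CPM in 3-month CFs, against 14.7 and 15.7 CPM in neonatal CFs (log2 fold change 2.29 ± 0.070). Foxc2 was at 12.9 and 13.1 CPM in 3-month CFs, against 49.5 and 51.1 CPM in neonatal CFs (log2 fold change -1.95 ± 0.087). Klf2, a factor induced by flow in endothelium, was at 12.8 and 12.4 CPM in 3-month CFs, against 57.9 and 62.2 CPM in neonatal CFs (log2 fold change -2.25 ± 0.090).

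Nuclear receptors rose in 17 and fell in 7 of 31 cases. The estrogen receptor Esr1 was at 14.2 and 12.6 CPM in 3-month CFs, against 0.657 and 0.398 CPM in neonatal CFs (log2 fold change 4.62 ± 0.22). Xist and Ddx3y showed that the sex of the cells differed between the ages, and its part in Esr1 was not tested. The oxysterol receptor Nr1h3 was at 11.9 and 13.03 CPM in 3-month CFs, against 3.002 and 2.39 CPM in neonatal CFs (log2 fold change 2.19 ± 0.15). In the clock list 11 of 20 genes rose and 3 fell. The output factor Hlf was at 26.5 and 18.8 CPM in 3-month CFs, against 0.797 and 0.739 CPM in neonatal CFs (log2 fold change 4.87 ± 0.44). Npas2, a partner of the core loop, was at 12.2 and 11.9 CPM in 3-month CFs, against 2.81 and 2.73 CPM in neonatal CFs (log2 fold change 2.12 ± 0.16). Rora, an activator of the core loop, was at 67.9 and 69.01 CPM in 3-month CFs, against 30.4 and 29.4 CPM in neonatal CFs (log2 fold change 1.19 ± 0.070). The core factor Arntl was at 19.1 and 19.02 CPM in 3-month CFs, against 29.1 and 25.4 CPM in neonatal CFs (log2 fold change -0.52 ± 0.093). The hour at which cells were taken is not in the labels used here. Factors of the acute phase and of cytokine signalling rose in 16 of 19 cases and fell in 2, with Cebpd at 196 and 224 CPM in 3-month CFs, against 36.4 and 37.2 CPM in neonatal CFs (log2 fold change 2.51 ± 0.079). Stat3 was at 432 and 426 CPM in 3-month CFs, against 208 and 209 CPM in neonatal CFs (log2 fold change 1.04 ± 0.043). Immediate early factors were split (9 of 24 rose, 10 fell), with Atf3, a stress-induced factor, at 4.14 and 5.798 CPM in 3-month CFs, against 20.9 and 21.4 CPM in neonatal CFs (log2 fold change -2.095 ± 0.14). Junb was at 226 and 245 CPM in 3-month CFs, against 125 and 126 CPM in neonatal CFs (log2 fold change 0.91 ± 0.050).

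Nr4a3, an orphan nuclear receptor induced within minutes of stimulation and the gene the series is about, was at 2.38 and 2.11 CPM in 3-month CFs, against 0.797 and 1.59 CPM in neonatal CFs (log2 fold change 0.95 ± 0.30), adjusted p 0.00868. Its level was low at both ages, and the 3-month libraries lay above the neonatal ones. It was not called without neonatal library 1 (0.47, adjusted p 0.285 by edgeR) or without 3-month library 1 (0.86, adjusted p 0.0552). Its relatives were lower in 3-month CFs, Nr4a1 at 34.7 and 36.6 CPM in 3-month CFs, against 45.03 and 49.9 CPM in neonatal CFs (log2 fold change -0.41 ± 0.14). Nr4a2 was at 2.79 and 3.31 CPM in 3-month CFs, against 5.21 and 4.49 CPM in neonatal CFs (log2 fold change -0.68 ± 0.20). Nr4a1 was not called when any 1 of the 4 libraries was left out (adjusted p 0.0742 to 0.21) or by DESeq2 (adjusted p 0.0511), and Nr4a2 was not called without 3-month library 1 (adjusted p 0.0641) or without neonatal library 1 (adjusted p 0.066). In LacZ cells Nr4a3 was at 11.3 and 13.5 CPM in 3-month LacZ cells and 2.73 and 2.83 CPM in neonatal LacZ cells (2.15 ± 0.23), and Nr4a1 was at 273 and 309.8 CPM in 3-month LacZ cells and 46.5 and 50.3 CPM in neonatal LacZ cells (2.59 ± 0.17).

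The fetal growth programme, a set of imprinted and oncofetal genes that is silenced after birth in many tissues, had one of the lowest medians (-1.98). Of 28 genes 20 fell and 5 rose. The imprinted RNA H19 was at 2.43 and 2.396 CPM in 3-month CFs, against 213 and 221 CPM in neonatal CFs (log2 fold change -6.48 ± 0.093), adjusted p 1.44e-32. Dlk1, an imprinted inhibitor of differentiation, was at 0.2698 and 0.287 CPM in 3-month CFs, against 58.6 and 53.9 CPM in neonatal CFs (log2 fold change -7.63 ± 0.20). The imprinted zinc finger gene Plagl1 was at 15.02 and 14.3 CPM in 3-month CFs, against 254 and 258 CPM in neonatal CFs (log2 fold change -4.12 ± 0.065). The targets of the let-7 microRNAs Hmga2 and Igf2bp1 were at 7.15 and 5.66 CPM in 3-month CFs and 165 and 169.5 CPM in neonatal CFs (-4.702 ± 0.094) and at 1.39 and 1.87 CPM in 3-month CFs and 44.6 and 47.4 CPM in neonatal CFs (-4.82 ± 0.14). Each of these genes was lower by more than 10 times in both 3-month libraries. Peg10, an imprinted gene derived from a retrotransposon, was among the 5 that rose, at 1194 and 1211 CPM in 3-month CFs, against 157 and 179.9 CPM in neonatal CFs (log2 fold change 2.84 ± 0.061). In LacZ cells 18 of 28 fell and 5 rose, with a median of -0.88.

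Genes of DNA methylation and Polycomb were evenly split (9 of 30 rose, 9 fell). Dnmt3a, a methyltransferase that sets new marks, was at 56.8 and 56.8 CPM in 3-month CFs, against 138 and 149 CPM in neonatal CFs (log2 fold change -1.33 ± 0.056). Tet3, which oxidises methylcytosine, was at 48.2 and 50.4 CPM in 3-month CFs, against 124 and 124 CPM in neonatal CFs (log2 fold change -1.33 ± 0.056). Dnmt3l, a cofactor of new methylation known from germ cells, was at 9.35 and 9.06 CPM in 3-month CFs, against 0.375 and 0.227 CPM in neonatal CFs (log2 fold change 4.87 ± 0.26). The methyl-CpG binding gene Mbd1 was at 186 and 182 CPM in 3-month CFs, against 53.7 and 56.7 CPM in neonatal CFs (log2 fold change 1.74 ± 0.057).

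**Figure D5:**
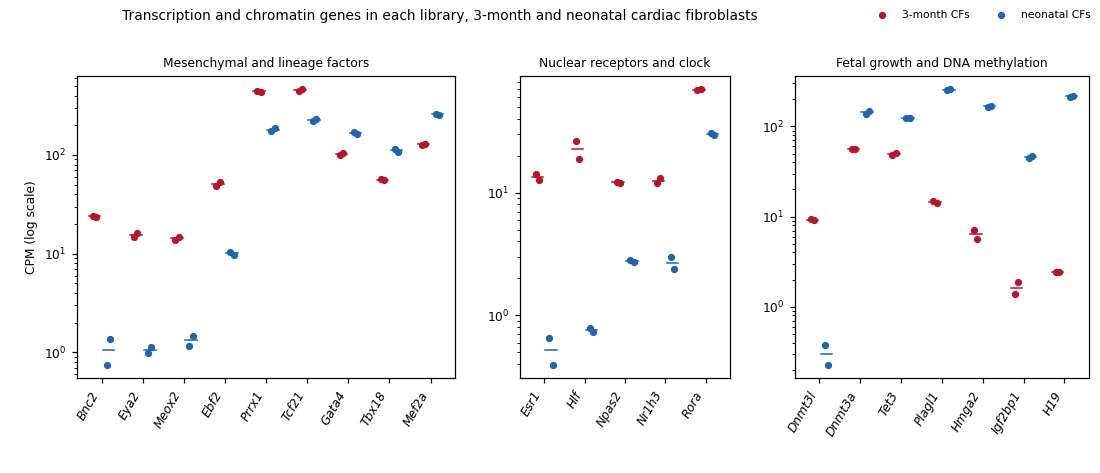
Level (CPM, log axis) of 21 transcription, growth and chromatin genes in each library, 2 points per age with their mean as a line, 3-month CFs left of neonatal CFs. Prrx1 sits at 445 and 438 CPM in 3-month CFs and 176 and 187 CPM in neonatal CFs, and H19 at 2.43 and 2.396 CPM in 3-month CFs and 213 and 221 CPM in neonatal CFs.

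Most genes that mark fibroblasts and the adventitial fibroblasts around vessels were higher in 3-month CFs. Of 29 genes 26 rose and 3 fell, with a median of 1.87. Ly6a, the Sca-1 antigen of mesenchymal progenitors, was at 421 and 375 CPM in 3-month CFs, against 3.38 and 1.99 CPM in neonatal CFs (log2 fold change 7.18 ± 0.14). Pi16, a marker of adventitial fibroblasts, was at 13.1 and 14.1 CPM in 3-month CFs, against 0.657 and 0.341 CPM in neonatal CFs (log2 fold change 4.71 ± 0.22). Scara5, a ferritin receptor of the same cells, was at 24.5 and 26.4 CPM in 3-month CFs, against 0.704 and 0.682 CPM in neonatal CFs (log2 fold change 5.18 ± 0.17). Entpd2, an enzyme that breaks down extracellular ATP, was at 42.5 and 46.3 CPM in 3-month CFs, against 0.891 and 0.682 CPM in neonatal CFs (log2 fold change 5.79 ± 0.16). Dpep1, a membrane dipeptidase, was at 213 and 217 CPM in 3-month CFs, against 22.2 and 23.2 CPM in neonatal CFs (log2 fold change 3.25 ± 0.059). The 3 genes that fell were Thy1, a surface antigen much used to mark fibroblasts, at 42.2 and 40.2 CPM in 3-month CFs, against 261 and 265 CPM in neonatal CFs (log2 fold change -2.67 ± 0.051), together with Col1a1 (-0.86 ± 0.040) and Cd248 (-0.74 ± 0.056). In LacZ cells 20 of 27 rose and 4 fell, with a median of 1.06.

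The same ages were compared in LacZ cells, whose table was scaled and tested on its own. The groups of LacZ cells differed in sex and in some markers of other cells too, with Xist at 0.512 and 0.568 CPM in 3-month LacZ cells and 516 and 548 CPM in neonatal LacZ cells. The cardiomyocyte marker Tnnt2 was at 2.81 and 3.01 CPM in 3-month LacZ cells and 310 and 262 CPM in neonatal LacZ cells, and the mesothelial marker Upk3b was at 1.92 and 1.65 CPM in 3-month LacZ cells and 146 and 131 CPM in neonatal LacZ cells. The part of these differences in what the tables share was not tested. Macrophage markers fell in 12 and rose in 2 of 16 cases in CFs. In LacZ cells 4 of 14 macrophage markers rose and 3 fell, with a median of 0.28. Of 16368 genes tested, 2464 were higher in 3-month LacZ cells (15.1%) and 2590 were lower (15.8%). These counts depended on single libraries, since 1514 were higher without neonatal LacZ library 1, 1627 without neonatal LacZ library 2, and 3162 without 3-month LacZ library 1. Of the 15431 genes tested in both tables, 4438 rose and 3865 fell in CFs, and 15.44% rose and 16.15% fell in LacZ cells. Among them 1662 rose in both, which is 37.45% of those that rose in CFs and 69.77% of those that rose in LacZ cells. A further 1750 fell in both, 45.28% of those that fell in CFs and 70.22% of those that fell in LacZ cells. Of the genes that rose in CFs 204 fell in LacZ cells (4.6%), against 16.15% of all genes tested in both tables. Of those that fell in CFs 141 rose in LacZ cells (3.65%), against 15.44% of all genes tested in both. The differences between CFs and LacZ cells were not tested.

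Libraries of 12-month and 24-month CFs in the same table place the 3-month levels. Sex differed among these ages as well, with Xist at 1283, 0.464, 0.367 and 804 CPM on average in neonatal, 3-month, 12-month and 24-month CFs. The genes below were chosen after their values were seen. Averaged over the 2 libraries of neonatal, 3-month, 12-month and 24-month CFs, Dcn was at 155, 2184, 1778 and 2482 CPM, and Prrx1 at 181, 441, 475 and 512 CPM. In the same order Plagl1 was at 256, 14.7, 5.93 and 6.87 CPM and H19 at 217, 2.41, 0.721 and 1.46 CPM. Hmgcs1 was at 79.6, 173, 107 and 129 CPM. For these genes the step between neonatal and 3-month CFs was larger than any step between the later ages. Ccnd1 was at 210.2, 58.3, 176 and 70.6 CPM, with 12-month CFs nearer to neonatal ones.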

How the data were processed

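The authors deposited raw read counts per gene for each library, with the exonic length of each gene in the same tables (used here only for levels per kilobase). Per the submitters' processing notes, Trimmomatic 0.36, featureCounts of Subread 1.5.1, SAMtools and the mouse build mm10 belong to the processing. Gene coordinates equal those of the GRCm38 (mm10) annotation for 2.76% of shared genes in the table of CFs and 99.35% in the table with the LacZ cells, so the build of the CF table and of its gene lengths, used for RPKM, is not settled; genes were joined by identifier and symbol. Which aligner and annotation were used is not given in the sources used here. Per the labels' protocols a stranded kit was used, but whether counting used strand is not given in the sources used here, so overlapping and antisense genes cannot be told apart. The columns named 13m in the table of CFs were taken as the 12-month samples of the labels by their replicate numbers. The neonatal LacZ columns show the group but not which sample.

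Counts were tested with edgeR 4.0.16 in R 4.3.3 (filterByExpr with a minimum count of 10, TMM scaling, robust quasi-likelihood fit, limma 3.58.1), on all 8 libraries of CFs and, separately, on the 12 libraries of the LacZ table, with Benjamini-Hochberg adjustment over all genes tested and a threshold of 0.05. Filtering left 16466 of 56691 genes in CFs. The scripts were tested on simulated data with known changes. Alternatives were DESeq2 1.42.0, other scalings, filters, libraries and a replicate block.

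The comparison, the gene lists and the motifs were chosen with earlier results of these data known. Named genes are, for each list, called members with large changes among those with a mean log2 CPM of at least 3 and no overlap between the ages, and other members chosen for their role. They are not always the largest changes of their list. Also named are the 10 largest rises and the 10 largest falls over all genes of that mean level with no overlap, and Nr4a3. Promoters are from RefSeq GRCm38.p6, joined by symbol. Windows on chromosome 18 were kept out of the printed sequences, and the promoter counts were made without that exclusion. Knockdown, overexpression and single-cell files were not analysed here, and values of some genes are not reported here.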

Additional observations from a re-analysis of the deposited data

Results flagged for a closer look

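For 8 of the genes named above, both libraries of 3-month CFs lay on one side of both neonatal libraries and the LacZ libraries lay on the other, with a call in each table. The difference between CFs and LacZ cells was not tested, and the tables were scaled separately. The calls of these genes in LacZ cells were not checked under the alternatives.

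Igfbp4, an IGF binding protein gene, changed by 3.04 ± 0.15 in CFs and by -0.92 ± 0.16 in LacZ cells, where it was at 52.6 and 71.2 CPM in 3-month LacZ cells and 119 and 116 CPM in neonatal LacZ cells. Igfbp3, of the same family, changed by 1.72 ± 0.12 in CFs and by -0.96 ± 0.14 in LacZ cells, where it was at 28.97 and 23.3 CPM in 3-month LacZ cells and 49.5 and 51.9 CPM in neonatal LacZ cells. Tcf21, the fibroblast factor, changed by 1.01 ± 0.049 in CFs and by -0.32 ± 0.11 in LacZ cells, where it was at 178 and 184 CPM in 3-month LacZ cells and 245 and 205 CPM in neonatal LacZ cells. Slc7a11, the cystine transporter gene, changed by -1.02 ± 0.16 in CFs and by 0.51 ± 0.17 in LacZ cells, where it was at 35.9 and 24.6 CPM in 3-month LacZ cells and 20.2 and 22.2 CPM in neonatal LacZ cells. The changes of Tcf21 and Slc7a11 in LacZ cells were small beside that of Igfbp4. Gsto1, a glutathione transferase gene, changed by -1.36 ± 0.082 in CFs and by 0.78 ± 0.092 in LacZ cells, where it was at 393 and 500.2 CPM in 3-month LacZ cells and 255 and 265 CPM in neonatal LacZ cells. Ctss, a cathepsin of macrophages, changed by -1.26 ± 0.079 in CFs and by 0.77 ± 0.16 in LacZ cells, where it was at 42.5 and 42.9 CPM in 3-month LacZ cells and 22.6 and 27.3 CPM in neonatal LacZ cells. Macrophage markers rose in 2 and fell in 12 of 16 cases in CFs, and rose in 4 and fell in 3 of 14 in LacZ cells. The part of macrophages in the change of Ctss was not tested. Nr4a1, an immediate early receptor gene, changed by -0.41 ± 0.14 in CFs and by 2.59 ± 0.17 in LacZ cells, where it was at 273 and 309.8 CPM in 3-month LacZ cells and 46.5 and 50.3 CPM in neonatal LacZ cells. Nr4a2, its relative, changed by -0.68 ± 0.20 in CFs and by 1.97 ± 0.33 in LacZ cells, where it was at 12.9 and 15.8 CPM in 3-month LacZ cells and 4.62 and 2.77 CPM in neonatal LacZ cells.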

How the results depend on the processing

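All alternatives were planned. In CFs the counts of genes higher, lower and in all stayed within 1.5 times of 4618, 4021 and 8639 under every alternative run, with 7022 genes called by DESeq2, 8758 with upper-quartile factors and 7325 to 7656 when 1 of the 4 libraries was left out. With a change of at least 2-fold, 2892 to 3016 were called when 1 library was left out, against 3098. With the replicate block 8502 genes were called, 3080 of them with at least a 2-fold change; the numbers do not pair the samples (r = -0.067), and among the genes named above it took the call only from Nr4a1. No paired analysis was possible because the neonatal columns carry no sample number in the LacZ table. Upper-quartile factors moved the median log2 fold change of all genes to -0.07, and the medians of the matricellular, TCA cycle, mitochondrially encoded, TGF-beta and EGF lists, all under 0.1, then fell below 0; that of the EGF list did so with RLE size factors and library totals too.

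In LacZ cells 3375 to 6423 genes were called when 1 library was left out, against 5054, and the genes higher in 3-month cells numbered 1514 to 3162, against 2464; 3564 were called in a fit of the 4 libraries alone. The cause was not tested. Of 238 named genes, 10 changed their side of the threshold in CFs under some alternative. None of those called in the main fit changed its direction. Genes not called in the main fit were not checked for a change of direction. Calls of named genes in LacZ cells were not checked under the alternatives. With 2 libraries per age the spread rests on few samples, and genes of few counts were filtered out.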
